A study of Homo sapiens with 6 samples.

Results

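The epidermal growth factor (EGF) family ligands and their ERBB receptors were followed through cardiac organoid differentiation, as 10 genes of the 58735 in the deposited table. They were chosen by name, with their levels in these libraries already known, as the 6 ligands AREG, EREG, HBEGF, TGFA, BTC and NRG1 and the 4 receptors EGFR, ERBB2, ERBB3 and ERBB4. Each name matched 1 row. RNA came from H9, an established human embryonic stem cell line, at day 0, day 2, day 3, day 4, day 6 and day 30 of differentiation into cardiac organoids, small 3-dimensional cultures of heart cell types. Each day was 1 library, and 10 organoids were harvested for it, per the labels. All 6 libraries, that of day 30 included, carry the cell type label embryonic stem cell, and neither a treatment nor an untreated parallel culture is named in the labels.

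Ligands of this family are made as membrane proteins, and proteases cut most of them free. AREG, EREG, HBEGF, TGFA and BTC bind EGFR, and HBEGF, EREG and BTC bind ERBB4 as well. NRG1 binds ERBB3 and ERBB4. ERBB2 has no known ligand and serves as the partner of the other receptors, while ERBB3 has little kinase activity and signals through its partner. In the mouse embryonic heart, NRG1 from the endocardium acts on ERBB2 and ERBB4 of the muscle wall and is needed for trabeculae, and HBEGF and EGFR take part in forming the valves.

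Levels are FPKM, reads per kilobase of gene scaled to a library denominator set by the authors, and can be set side by side between genes within a library. With 1 library per day there was no replicate and no test across samples. A gene was called higher or lower where log2(FPKM + 1) differed by at least 1 and its FPKM reached 1 in either library. Folds are ratios of FPKM, and their 95% intervals cover counting error only. Recovered reads per library lay between 13500887 and 15526924, and the 10 genes together took between 3275 and 8839 of them. In a bulk library, fewer cells of a type and less RNA per cell cannot be told apart. Of 5 pluripotency markers, 1 stood at 1 FPKM or more at day 30, with a summed 2.75 FPKM and NANOG listed at 0, and 5 did so at day 0, with a summed 1372 FPKM. Of 8 cardiomyocyte markers, 8 reached 1 FPKM at day 30 and 1 at day 0, and they summed to 213 FPKM at day 30 and 357 FPKM at day 6. Of the 8, MYL7 alone was called lower at day 30 against day 6, at 64.0 and 336 FPKM, and MYH6, MYH7, MYL2, ACTN2 and NPPA were called higher, MYH6 at 69.0 and 3.43 FPKM.

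The 10 genes followed separate courses. TGFA was highest at day 2, NRG1 at days 3 and 4, and ERBB2 and ERBB4 at day 6. AREG, EREG, EGFR and ERBB3 were highest at day 30, where AREG alone stood above every other gene of the family on any day. HBEGF was highest at day 2 and next highest at day 30, and BTC stayed at 1 read or none in every library.

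**Figure D1:**
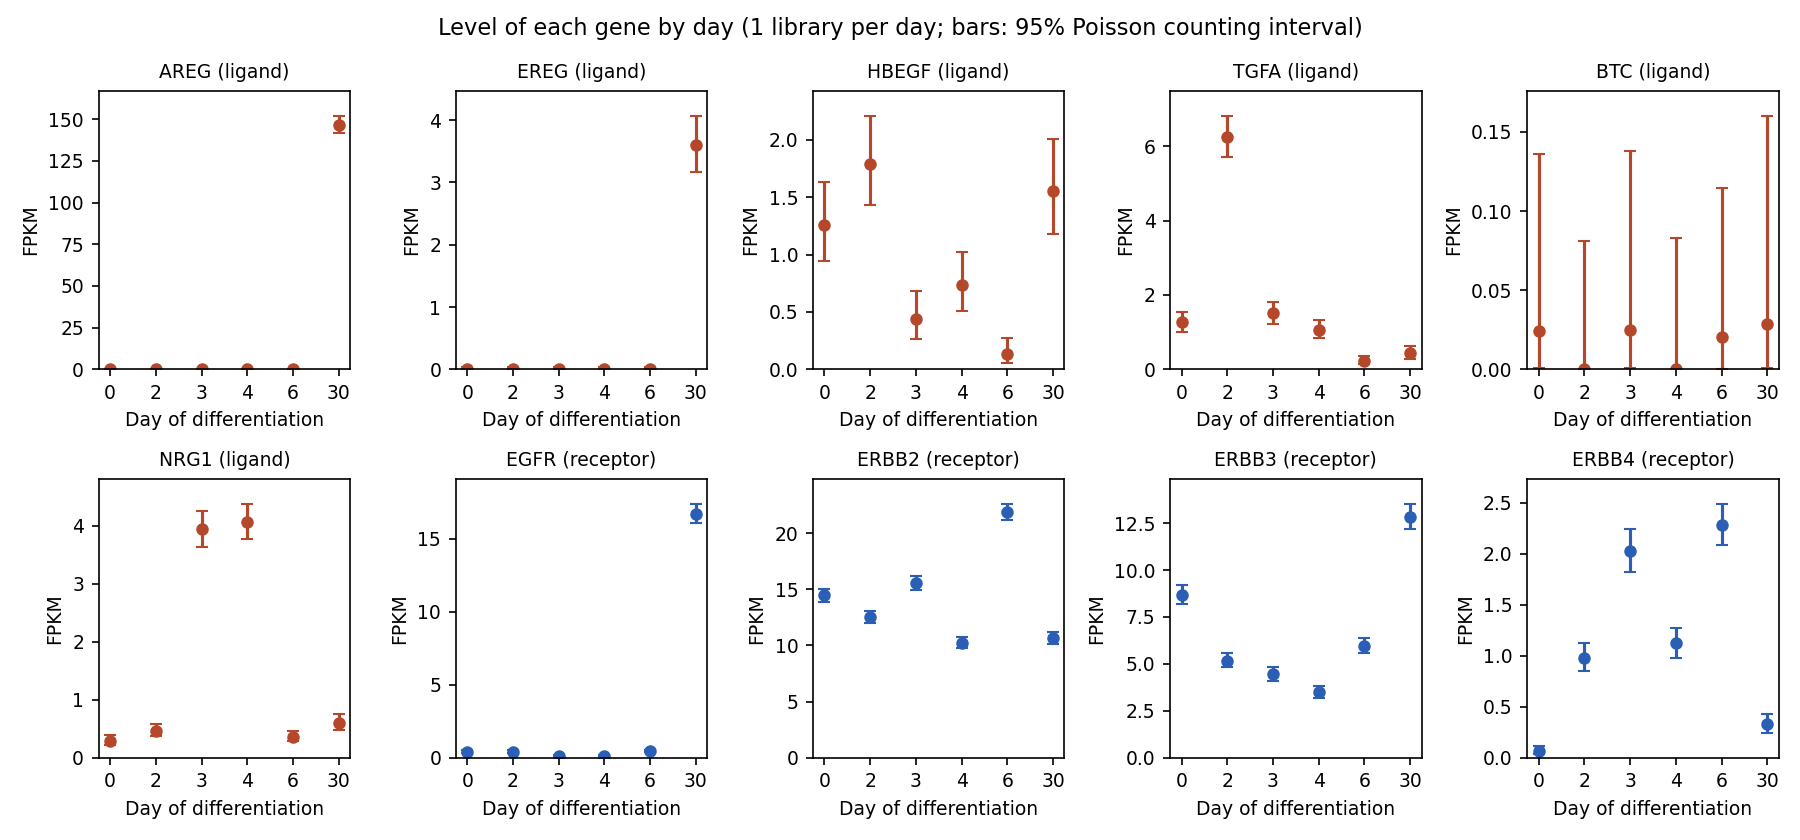
Level in FPKM (linear axis from 0, its own range in each panel) of the 6 ligands and 4 receptors by day, with days drawn at even spacing; points are single libraries and bars are 95% Poisson counting intervals. AREG, EREG and EGFR stood near 0 up to day 6 and at 147, 3.60 and 16.7 FPKM at day 30, while NRG1 stood at 3.95 and 4.07 FPKM on days 3 and 4 and under 1 FPKM on the other days.

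AREG, which encodes amphiregulin, a ligand of EGFR, had 0.167 FPKM at day 0, 0.0377 at day 2, 0.127 at day 3, 0.0384 at day 4, 0 at day 6 and 147 FPKM at day 30. Its recovered reads were at most 4 in each of the first 5 libraries and 2987 in the last. The level at day 30 was thus apart from all earlier days, and it was at least 1393-fold higher than at day 6, against a floor of 3 reads in the day 6 library. Against day 0 it was 878-fold higher (343 to 3225). Among 13155 protein-coding genes tested between day 30 and day 6, 3 had a greater log2 rise, and AREG ranked 200 of 19951 protein-coding genes by level at day 30.

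EREG encodes epiregulin, a ligand of EGFR and ERBB4. No read was recovered for it at days 0, 2, 3, 4 and 6, where the floor of 3 reads corresponds to between 0.0304 and 0.0366 FPKM, and 254 reads gave 3.60 FPKM at day 30. This was at least 118-fold higher than at day 6 and at least 99.6-fold higher than at day 0. Within the day 30 library AREG stood 40.8-fold above EREG (35.9 to 46.6).

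AREG (ENSG00000109321, GRCh38 chr4:74445134-74455009, plus strand) and EREG (ENSG00000124882, chr4:74365143-74388751, plus strand) lie beside each other on chromosome 4. The 300 bases from 250 before to 50 after their start sites are printed because both genes were near or at 0 up to day 6 and called higher at day 30. They come from RefSeq (GRCh38.p14), at chr4:74444886-74445185 for AREG and chr4:74364895-74365194 for EREG, both on the plus strand, 5′ to 3′. Capitals mark matches to TGACGTCA (the cAMP response element), TATAAA (the TATA box) or GGGCGG (the GC box, here on the opposite strand), searched on both strands with TGANTCA (AP-1) and the CArG box.
AREG: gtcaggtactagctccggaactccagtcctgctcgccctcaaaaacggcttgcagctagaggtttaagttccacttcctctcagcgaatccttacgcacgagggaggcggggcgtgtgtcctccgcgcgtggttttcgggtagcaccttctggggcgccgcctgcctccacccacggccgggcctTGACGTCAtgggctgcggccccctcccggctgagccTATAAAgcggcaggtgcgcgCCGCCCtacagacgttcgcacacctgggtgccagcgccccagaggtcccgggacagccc
EREG: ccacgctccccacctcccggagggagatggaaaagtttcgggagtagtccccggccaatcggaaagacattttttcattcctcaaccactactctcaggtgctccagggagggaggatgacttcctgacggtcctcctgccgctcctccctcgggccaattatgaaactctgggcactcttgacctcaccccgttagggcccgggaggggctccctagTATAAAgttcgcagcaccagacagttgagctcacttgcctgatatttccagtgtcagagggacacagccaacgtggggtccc

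Both windows hold TATAAA, at 29 bases before the start of AREG and 32 before that of EREG, as do 11.5% of all 35116 promoter windows. The AREG window also holds TGACGTCA from 65 to 58 bases before the start, which 1.85% of all windows hold, and 1 GC box, which 45.0% hold. No match to TGANTCA (in 7.71% of all windows) or to the CArG box (1.29%) was in either window. These matches are letters in a window and describe neither binding nor a cause. Windows were held for 8 of the 10 genes. The BTC window holds 1 GC box and no TATAAA, and of the other genes with a window only EGFR has TATAAA, in the window of its second listed start.

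The neighbours of AREG and EREG allow the same chromosome region to be read gene by gene. From EPGN, which encodes epigen, another EGFR ligand, the start of EREG lies 56.7 kb on, that of AREG 137 kb on and that of BTC 486 kb on. EPGN had no recovered read up to day 4, 0.0638 FPKM from 2 reads at day 6 and 0.402 FPKM from 9 reads at day 30, and stayed under 1 FPKM. BTC (ENSG00000174808, chr4:74744759-74794686, minus strand), which encodes betacellulin, had at most 1 read in each library and 0.0287 FPKM at day 30. The 4 ligand genes thus ran in a single file with AREG high, EREG lower and EPGN and BTC at or near 0 at day 30. Of the flanking genes, MTHFD2L, a mitochondrial folate enzyme, had 1.16 FPKM at day 30 and 1.05 FPKM at day 6. PARM1 on the far side of BTC had 33.4 FPKM at day 30 and 2.94 FPKM at day 6.

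**Figure D2:**
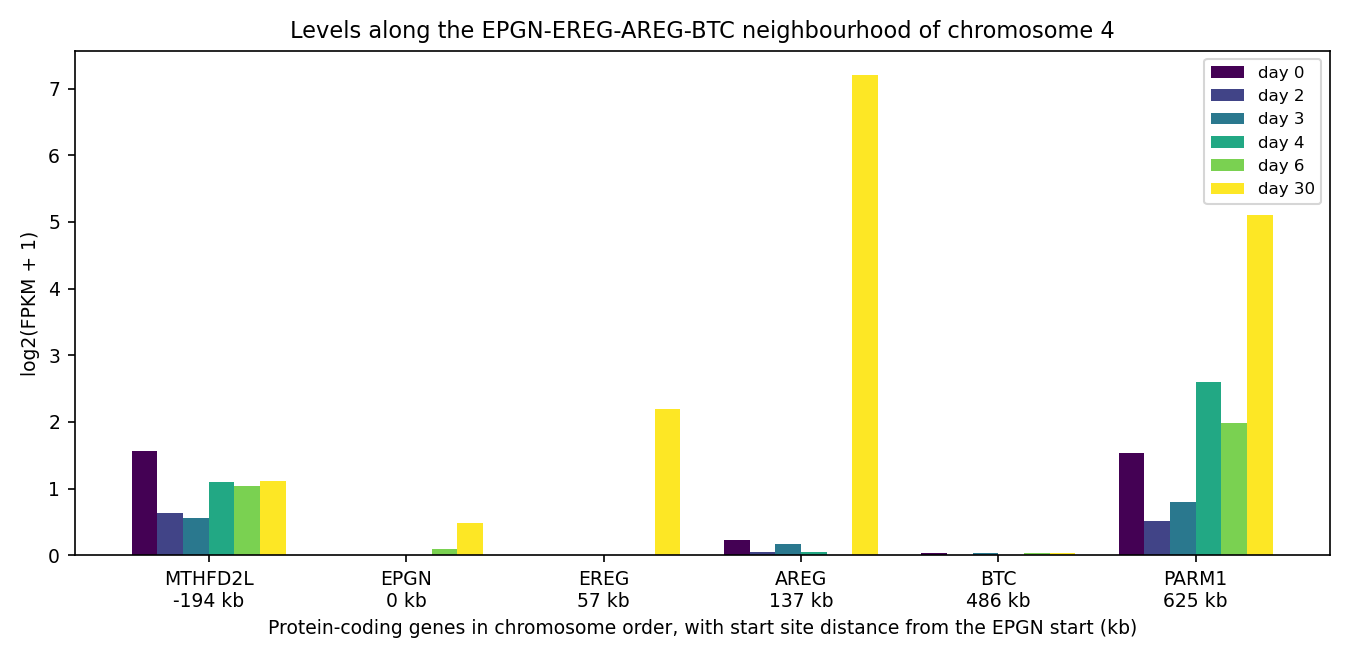
log2(FPKM + 1) of 6 consecutive protein-coding genes of chromosome 4 in order, with 1 bar per day from day 0 to day 30 and the distance of each start site from that of EPGN in kb. At day 30, AREG stood at 147 FPKM and EREG at 3.60 FPKM, with EPGN at 0.402 and BTC at 0.0287 FPKM on either side, and bars that cannot be seen are at or near 0.

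EGFR (ENSG00000146648, chr7:55019021-55211628, plus strand), the receptor of both ligands, had 0.429 FPKM at day 0, 0.407 at day 2, 0.150 at day 3, 0.152 at day 4, 0.467 at day 6 and 16.7 FPKM at day 30. Its reads were fewest at day 3, with 27, and most at day 30, with 2584. Day 30 was therefore apart from every earlier day, at 35.8-fold the level of day 6 (29.3 to 44.1), a log2 difference of 3.59. Days 3 and 4 did not differ beyond counting error (1.01-fold, 0.579 to 1.76), and day 3 lay below day 2 by 2.71-fold (1.73 to 4.35) at levels under 1 FPKM. AREG over EGFR was 8.78 at day 30 (8.33 to 9.26) and 0.390 at day 0 (0.104 to 1.04).

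Of the 6 ligands, HBEGF and TGFA had the highest levels at day 0. HBEGF (ENSG00000113070, chr5:140332843-140346631, minus strand), a heparin-binding ligand of EGFR and ERBB4, had 1.25 FPKM at day 0, 1.79 at day 2, 0.439 at day 3, 0.734 at day 4, 0.134 at day 6 and 1.56 FPKM at day 30. It was low from day 3 to day 6 and at day 30 was again near its day 0 level, at 1.24-fold (0.843 to 1.83). HBEGF was called higher at day 30 against day 6, by 11.6-fold (5.28 to 30.1), on 58 reads at day 30 and 7 at day 6. The log2 difference was 1.17, and it was 0.98, under the call, when libraries were scaled by recovered reads.

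TGFA (ENSG00000163235, chr2:70447280-70554193, minus strand), transforming growth factor alpha, had 1.26 FPKM at day 0, 6.24 at day 2, 1.50 at day 3, 1.07 at day 4, 0.233 at day 6 and 0.440 FPKM at day 30. Day 2 stood apart from all other days. TGFA rose to 6.24 FPKM at day 2, 4.95-fold the level of day 0 (3.95 to 6.26), and fell 4.15-fold by day 3 (3.37 to 5.17). Days 3 and 0 lay close together, and the counting intervals of their levels overlapped (1.23 to 1.82 FPKM at day 3 and 1.02 to 1.55 FPKM at day 0).

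NRG1 (ENSG00000157168), the ligand of ERBB3 and ERBB4, had 0.292 FPKM at day 0, 0.471 at day 2, 3.95 at day 3, 4.07 at day 4, 0.363 at day 6 and 0.607 FPKM at day 30. Days 3 and 4 were high and did not differ beyond counting error (1.03-fold, 0.926 to 1.15), and the other 4 days were under 1 FPKM. NRG1 rose 8.37-fold between day 2 and day 3 (6.67 to 10.6) and fell 11.2-fold between day 4 and day 6 (8.78 to 14.5). Its log2 rise at day 3 ranked 110 of 12063 protein-coding genes tested.

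Of the other neuregulins, which lie outside the 10 genes, NRG2 had 0.0305 FPKM at day 0, 0.234 at day 2, 9.33 at day 3, 4.48 at day 4, 3.31 at day 6 and 0.770 FPKM at day 30. It stood 2.37-fold above NRG1 at day 3 (2.11 to 2.65) and 9.14-fold above it at day 6 (7.01 to 12.1), while at day 4 the interval of the ratio held 1 (0.963 to 1.26). These ratios rest on merged exon lengths of 11328 bases for NRG1 and 4520 for NRG2. The longest coding transcripts have 5931 and 3723 bases and would lower the ratios, which were not recomputed with them. NRG3 was also highest at day 3, with 3.60 FPKM, and had 3.04 FPKM at day 4 and 0.251 FPKM at day 6. NRG4 lay between 0.0988 and 0.205 FPKM. Of the 5 ligands outside the 10, NRG2 and NRG3 were called higher at day 3 against day 2, of 3 tested, and 0 lower. Of all genes tested there, 7.13% were higher and 4.98% lower. NRG3 was called lower at day 6 against day 4, of 2 tested, where 5.51% of all genes were higher and 6.71% lower. EGF itself had 0.779 FPKM at day 30 and 2.04 FPKM at day 0, and its lowest level was 0.269 FPKM at day 4. At day 6 against day 0, NRG2 was called higher and EGF lower, of 3 tested. Of all genes, 14.9% were higher there and 13.1% lower. At day 30 against day 6, NRG2 was called lower, of 2 tested, where 21.0% of all genes were higher and 15.3% lower. None of 2 tested was called at day 30 against day 0, where 25.9% of all genes were higher and 19.1% lower.

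Marker lists of other cell types moved in both directions at day 3. Between day 3 and day 2, the summed level of 4 neuronal markers was 28.0 and 5.45 FPKM, with 1 of 4 at 1 FPKM or more on both days. The sum of 8 endothelial and endocardial markers was 54.9 and 43.7 FPKM, with 2 of 8 at 1 FPKM or more on both days and none at 0. Of these 8, NFATC1 alone was called higher, at 25.3 and 5.33 FPKM, and 0 were called lower. Epithelial markers summed to 1416 and 664 FPKM, endoderm and liver markers to 262 and 121 FPKM, and fibroblast markers to 65.8 and 37.4 FPKM. Sums were lower at day 3 for pluripotency markers, at 466 and 757 FPKM, smooth muscle markers, at 11.6 and 14.6 FPKM, epicardial markers, at 0.739 and 1.86 FPKM, and macrophage markers, at 0.115 and 0.475 FPKM. Between day 6 and day 4, where NRG1 and NRG3 were called lower, neuronal markers summed to 1.60 and 22.8 FPKM. Of these 4, STMN2 alone was called lower. Of the endothelial and endocardial markers, NFATC1 was lower, at 5.25 and 46.7 FPKM, and CDH5, TEK and TIE1 higher. Higher and lower calls were 5 and 0 of 7 fibroblast, 3 and 0 of 8 cardiomyocyte and 4 and 2 of 7 endoderm and liver markers. They were 0 and 2 of 5 pluripotency, 0 and 1 of 8 epithelial, and 2 and 0 among smooth muscle markers. Of all genes tested, 5.51% were higher and 6.71% lower. The part of these cell types in the neuregulin levels was not tested.

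ERBB2 had the highest level of the 4 receptors at every day up to day 6. ERBB2 (ENSG00000141736, chr17:39687914-39730426, plus strand) had 14.4 FPKM at day 0, 12.5 at day 2, 15.5 at day 3, 10.2 at day 4, 21.9 at day 6 and 10.7 FPKM at day 30. Its highest library was that of day 6, and its lowest that of day 4. ERBB2 rose 2.14-fold between day 4 and day 6 (2.02 to 2.26). At day 30 it stood 2.05-fold below day 6 (1.93 to 2.18), a log2 difference of -0.97 that missed the call. It was called lower there at -1.38 when scaled by recovered reads, -1.15 by TMM, -1.32 by TPM and -1.03 with a pseudocount of 0.1. ERBB2 shares 571 exonic bases with MIEN1 and 194 with PGAP3 on the opposite strand, of 10321 in all, and whether counting used strand is not given in the sources used here.

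ERBB3 (ENSG00000065361, chr12:56076799-56103505, plus strand), a receptor of NRG1, had 8.67 FPKM at day 0, 5.18 at day 2, 4.47 at day 3, 3.49 at day 4, 5.96 at day 6 and 12.8 FPKM at day 30. It was lowest at day 4 and highest at day 30. None of the 7 comparisons passed the call, and the nearest was day 30 against day 6, at 2.15-fold (1.98 to 2.34) and a log2 difference of 0.99. With a pseudocount of 0.1 that difference was 1.09, past the call, and scaled by recovered reads it was 0.59.

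ERBB4 (ENSG00000178568, chr2:211375717-212538841, minus strand), the receptor of NRG1 that heart muscle uses with ERBB2, had 0.0687 FPKM at day 0, 0.983 at day 2, 2.02 at day 3, 1.12 at day 4, 2.28 at day 6 and 0.330 FPKM at day 30. It was lowest at day 0, with 13 reads, and days 3 and 6 were its high points. ERBB4 was called higher at day 6 against day 0, by 33.2-fold (19.2 to 62.7), and lower at day 30 against day 6, by 6.92-fold (5.21 to 9.36). Between day 2 and day 0 it stood 14.3-fold higher (8.18 to 27.3) but under 1 FPKM in both, so it was not tested there. Between day 30 and day 6, 5 of the 8 cardiomyocyte markers were called higher and 1, MYL7, lower. Of all genes tested there, 21.0% were higher and 15.3% lower. The part of cardiomyocytes in the ERBB4 level was not tested.

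The make-up of the family differed between days in both ligands and receptors. The summed level of the 6 ligands was 3.00 FPKM at day 0, 8.54 at day 2, 6.04 at day 3, 5.91 at day 4, under 1 at day 6 and 153 FPKM at day 30. TGFA made up 73.1% of it at day 2, NRG1 68.8% at day 4 and AREG 95.9% at day 30. At day 0 TGFA and HBEGF held 42.1% and 41.8%, and the ratio of the pair was 1.01 (0.712 to 1.43).

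The summed level of the 4 receptors lay between 15.0 FPKM at day 4 and 40.5 FPKM at day 30. ERBB2 made up between 61.2% and 71.5% of it from day 0 to day 6. At day 30 the shares were 41.2% for EGFR, 31.6% for ERBB3, 26.3% for ERBB2 and 0.814% for ERBB4. EGFR over ERBB2 was 1.57 at day 30 (1.47 to 1.67) and 0.0213 at day 6 (0.0173 to 0.0260). The order at day 30 rests on the length used, since with the longest coding transcript in place of all merged exons ERBB2 held 35.8% and EGFR 33.2%, a setting chosen after seeing the data. ERBB4 over ERBB2 was 0.00476 at day 0 (0.00253 to 0.00816), 0.130 at day 3 (0.117 to 0.145) and 0.0309 at day 30 (0.0230 to 0.0407).

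**Figure D3:**
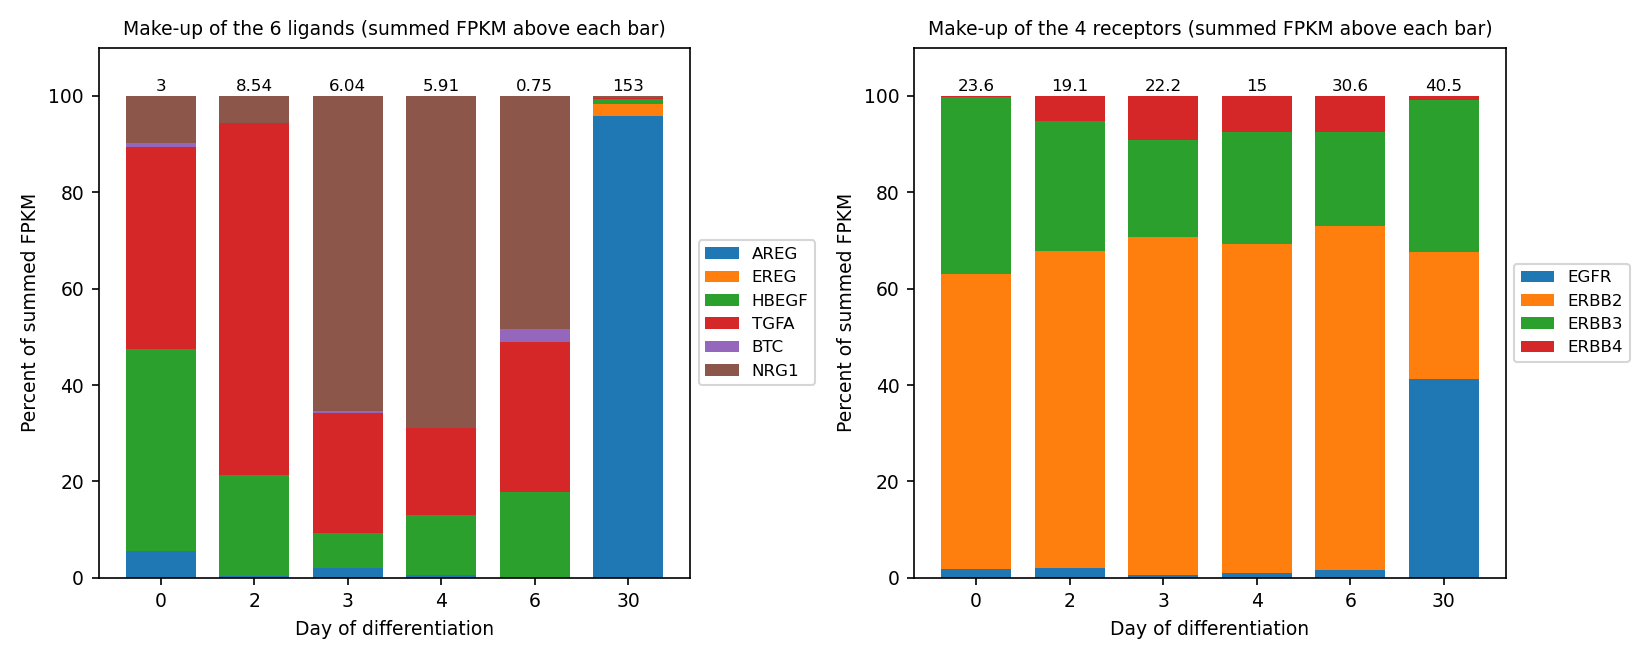
Percent of the summed FPKM held by each of the 6 ligands (left) and 4 receptors (right) on each day, with the summed FPKM above each bar. TGFA held 73.1% of ligand FPKM at day 2, NRG1 68.8% at day 4 and AREG 95.9% at day 30, and EGFR held 41.2% of receptor FPKM at day 30 against 1.53% at day 6.

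Counts of called genes are a description here, since the 10 genes were picked with these levels known. In addition, a gene that passes the minimum only on its high day must differ in level, though not always by enough for a call. Between day 2 and day 0, TGFA was called higher and no gene of the 10 lower, with 4 tested, where 8.78% of 16019 genes tested were higher and 7.75% lower. Between day 3 and day 2, NRG1 was higher and TGFA lower, of 6 tested, where 7.13% of all genes tested were higher and 4.98% lower. None of 5 tested was called between day 4 and day 3, where 4.23% of the table was higher and 3.59% lower. Between day 6 and day 4, ERBB2 was higher and NRG1 lower of 5 tested, against 5.51% and 6.71% of the table.

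The comparison of day 30 with day 6 held 5 of the calls in the family. AREG, EREG, HBEGF and EGFR were higher and ERBB4 lower, of 7 tested, where 21.0% of 18023 genes were higher and 15.3% lower. Between day 6 and day 0, ERBB4 was higher and none was lower, of 5 tested, with 14.9% of the table higher and 13.1% lower. Between day 30 and day 0, AREG, EREG and EGFR were higher and none was lower, of 7 tested, with 25.9% of the table higher and 19.1% lower. These last comparisons share the libraries of day 0, day 6 and day 30 and are not independent of each other.

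Several differences lay just under the call. HBEGF differed by -0.99 between day 6 and day 0 and by -0.96 between day 3 and day 2 on the log2 scale, at 9.35-fold lower (4.25 to 24.3) and 4.08-fold lower (2.46 to 7.10) by the ratio of FPKM. With a pseudocount of 0.1 these differences were -2.53 and -1.81. Scaling by recovered reads, in place of the deposited denominators, moved the median of all genes tested by -0.34 on the log2 scale between day 30 and day 6 and gave 2555 higher and 4279 lower over the table, against 3776 and 2761 as deposited. TPM, with the pseudocount and minimum kept at 1 in its own unit, gave 5512 and 7209 there. Between day 6 and day 0 the split was 3119 and 1760 by recovered reads and 7155 and 3066 by TPM, against 2529 and 2224, and between day 6 and day 4 it was 3459 and 2693 by TPM, against 922 and 1123. Between day 30 and day 0 it was 3708 and 4022 by recovered reads, against 4635 and 3406. AREG, EREG and EGFR were called higher at day 30 against both days under each of these scalings.

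**Figure D4:**
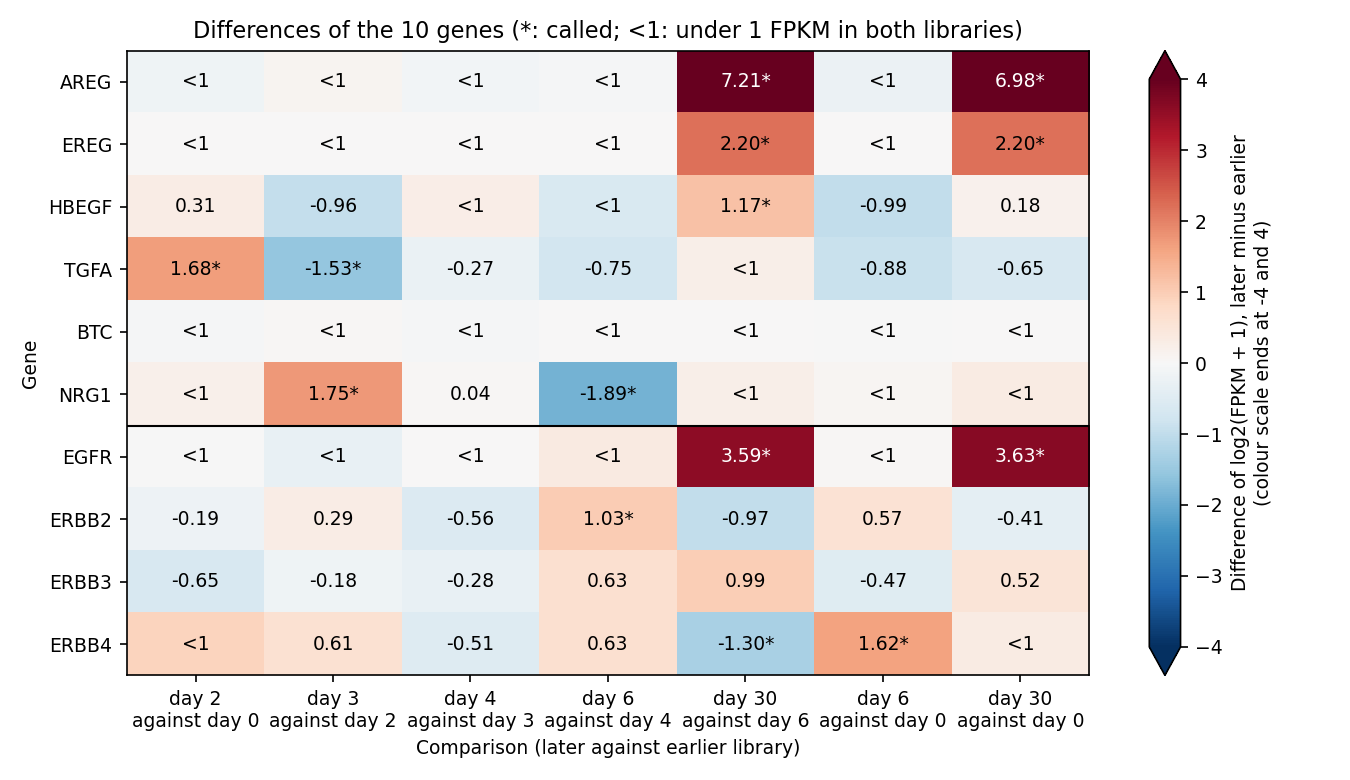
Difference of log2(FPKM + 1), later minus earlier library, for the 10 genes in 7 comparisons; a star marks a call, <1 marks a gene under 1 FPKM in both libraries, and the colour scale ends at -4 and 4. AREG (7.21), EGFR (3.59) and EREG (2.20) were called higher at day 30 against day 6, and ERBB4 (-1.30) lower.

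Markers of several other cell types were higher in the same library as AREG, EREG and EGFR. The summed level of 7 fibroblast markers was 5924 FPKM at day 30 and 653 FPKM at day 6, with 7 and 5 of 7 at 1 FPKM or more. The sum of 5 macrophage markers was 8.68 FPKM at day 30, with 3 of 5 at 1 FPKM or more and CD68 listed at 0, and 0.0713 FPKM at day 6, with PTPRC, CD14 and C1QA listed at 0. The sum of 5 epicardial markers was 22.5 and 5.28 FPKM, with 4 and 1 of 5 at 1 FPKM or more. The sum of 4 neuronal markers was 36.1 and 1.60 FPKM, with 2 and 0 of 4 at 1 FPKM or more and ELAVL4 at 0 on day 30.

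Within other lists single genes moved in opposite directions between day 30 and day 6, where 21.0% of all genes tested were called higher and 15.3% lower. Endoderm and liver markers summed to 488 and 426 FPKM, with 2 of 7 called higher and 4 lower, among them ALB at 14.5 and 0.0856 FPKM and SOX17 at 2.38 and 49.8 FPKM. Smooth muscle markers summed to 97.3 and 111 FPKM, where ACTA2 (37.8 and 8.11 FPKM), TAGLN and CNN1 were called higher and the higher of 2 rows named RGS5 (14.0 and 94.2 FPKM) lower. Endothelial and endocardial markers summed to 105 and 95.9 FPKM, with NPR3 called higher, at 28.1 and 0.668 FPKM, and CDH5 (0.319 and 3.76 FPKM) and TIE1 lower. Epithelial markers summed to 816 and 1272 FPKM, with 2 of 8 higher and 1 lower. CDH1 (40.8 and 16.6 FPKM) and CLDN7 were the higher ones, and KRT8 (148 and 345 FPKM) the lower. The part of these cell types in the levels of the 10 genes was not tested.

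Genes that release the ligands were examined as a list of 10. ADAM17, the main protease that sheds AREG, EREG, HBEGF and TGFA, had 9.64 FPKM at day 30 and 4.42 FPKM at day 6, a log2 difference of 0.97 that was not called. ADAM12 and ADAM9, which can shed HBEGF, were called higher at day 30 against day 6, at 10.7 and 3.35 FPKM for ADAM12 and 31.9 and 6.38 FPKM for ADAM9. In that comparison 4 of 9 tested genes were higher and 1 lower, where 21.0% of all genes tested were higher and 15.3% lower, with a median log2 difference of 0.97, against 0.08 over all genes tested. The gene that fell was ADAM19, a protease that can cut NRG1, at 7.30 FPKM at day 30 and 28.3 FPKM at day 6. Against day 0, 7 of 9 were higher at day 30 and 0 lower (median 1.29, against 0.13 over all genes, of which 25.9% were higher and 19.1% lower), among them BACE1, another protease that cuts NRG1, at 11.4 and 1.48 FPKM.

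Of 14 genes listed under inhibition and degradation of the receptors, all tested, 5 were higher and 0 lower at day 30 against day 6. Their median log2 difference was 0.33, and 21.0% of all genes were higher and 15.3% lower. ERRFI1, a feedback inhibitor that binds the kinase domain of EGFR, had 20.6 FPKM at day 0, 10.5 at day 2, 14.0 at day 3, 21.4 at day 4, 30.4 at day 6 and 123 FPKM at day 30. It was thus highest in the library where AREG was, 4.04-fold above day 6 (3.85 to 4.24). LRIG1, a membrane protein that lowers ERBB levels, had 32.0 FPKM at day 0, 2.09 at day 6 and 11.2 FPKM at day 30, and was lower on both of these days than at day 0. LRIG3, of the same family, had 1.64 FPKM at day 0, 51.6 FPKM at day 3 and 15.9 FPKM at day 30. Against day 0, 1 of 14 was higher and 1 lower at day 6, where 14.9% of all genes were higher and 13.1% lower. At day 30 against day 0, 3 were higher and 1 lower. The share of higher calls was near the 25.9% of all genes, of which 19.1% were lower.

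Of 19 adaptors and signal carriers, 17 were tested at day 30 against day 6, and 5 were higher and 0 lower (median 0.77), near the 21.0% of all genes called higher. GAB2, a docking protein, had 3.87 FPKM at day 0, 5.47 FPKM at day 6 and 32.2 FPKM at day 30. Against day 0, GRB7, an adaptor that binds ERBB2, and SHC3 fell by day 6, and GRB7 stood at 12.4 FPKM at day 30 and 32.5 FPKM at day 0. In that comparison of day 30 with day 0, 1 of 18 tested was higher and 3 lower, with a median of 0.62, where 25.9% of all genes were higher and 19.1% lower.

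Early response genes, which EGF and many other stimuli switch on, were examined as a list of 18 that also holds ERRFI1. At day 2 against day 0, 6 were higher and 0 lower, where 8.78% of all genes were higher, and at day 3 against day 2, 0 were higher and 8 lower, where 4.98% of all genes were lower. Day 6 against day 4 gave 0 higher and 7 lower of 17 tested, where 6.71% of all genes were lower. Day 6 against day 0 gave 1 higher and 10 lower of 17 tested (median -1.20), where 13.1% of all genes were lower. At day 30 against day 6, 12 of 18 were higher and 1 lower, with a median log2 difference of 1.82, where 21.0% of all genes were higher and 15.3% lower. DUSP1, a phosphatase that switches MAP kinases off, had 209 FPKM at day 30 and 4.04 FPKM at day 6, and JUNB, an AP-1 factor, had 157 and 3.08 FPKM. DUSP6, which acts on ERK, was the gene that fell, at 4.95 FPKM at day 30 and 32.3 FPKM at day 6. FOS, another AP-1 factor, had 16.6 FPKM at day 0, 42.9 at day 2, 2.24 at day 3, 2.68 at day 4, 0.554 at day 6 and 40.5 FPKM at day 30, so days 2 and 30 were high. SPRY4, a feedback inhibitor of receptor signalling, had 88.8 FPKM at day 4, 6.92 at day 6 and 8.15 FPKM at day 30. EGR1 had 72.3 FPKM at day 0, 0.977 FPKM at day 6 and 6.81 FPKM at day 30, so at day 30 it was higher than on day 6 and lower than on day 0. Over the list of 18, day 30 against day 0 gave 7 higher and 4 lower (median 0.38). Of all genes tested there, 25.9% were higher and 19.1% lower.

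**Figure D5:**
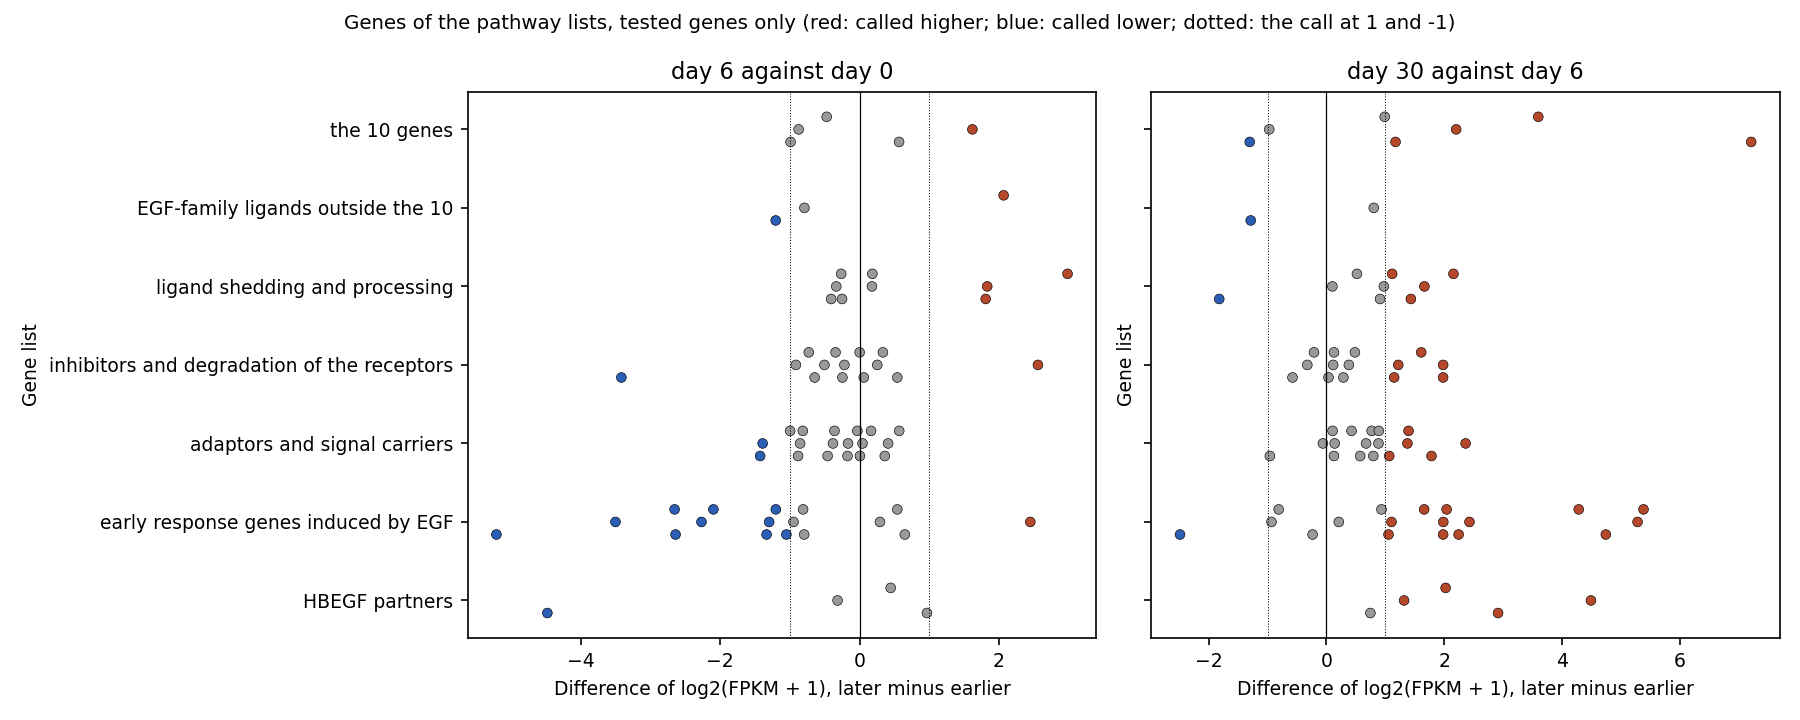
Difference of log2(FPKM + 1) for the tested genes of each list at day 6 against day 0 (left) and day 30 against day 6 (right), which share the day 6 library; red is called higher, blue called lower and grey not called, and dotted lines mark -1 and 1. On the right, 12 of 18 early response genes lie at or beyond 1 and 1 beyond -1.

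The protein-coding genes with the courses most like those of the 10 were found by the root mean square difference between log2(FPKM + 1) profiles over the 6 libraries, each centred on its own mean, among genes that reached 5 FPKM. Nearest to AREG were CXCL8 (0.104), SERPINA1 (0.158) and POSTN (0.166), which had 123, 114 and 132 FPKM at day 30. Nearest to EGFR were SIK1B (0.0870), LRRC17 (0.102) and IRAK2 (0.104), and SIK1B has a near-identical copy with which reads may be split. Nearest to EREG were TOM1, ABR and LMNA, which unlike EREG had FPKM above 4 on every day. TOM1 had 27.9 FPKM at day 30 and 4.90 FPKM at day 6.

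TGFA lay nearest to RET (0.230), WARS (0.232) and GALNT14 (0.235), all highest at day 2, where RET had 6.96 and GALNT14 6.85 FPKM. NRG1 lay nearest to CD70 (0.159) and GCNT1 (0.176), with 4.96 and 9.02 FPKM at day 3, and to C8orf58 (0.249). ERBB2 was nearest to FAAH (0.102), IQGAP3 (0.121) and GPRASP2 (0.144), ERBB3 to PRRG1 (0.0899), TRIM25 (0.111) and PIK3CD (0.112), and ERBB4 to NINL (0.171), SHF (0.172) and TMTC2 (0.174). HBEGF lay nearest to RABGGTB (0.133), TLE4 (0.141) and ZBTB2 (0.143). With 6 libraries many genes share a course, and these values describe likeness and nothing further.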

How the data were processed

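RNA sequencing of poly(A) RNA was deposited as 1 table of 58735 genes by 6 libraries, 1 per day. The deposited values are FPKM, made by the authors from reads per gene. CASAVA, HISAT2 and featureCounts 1.5.0-p3 are named in the submitters' processing notes, with no settings, while build and strand setting are not given in those notes. All 58735 gene identifiers matched GENCODE 29 (GRCh38) in start, end and strand, and every gene length equalled the summed merged exons.

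Dividing FPKM by the value of 1 read for that gene gave whole reads, within 0.001 read, for 100% of values above 0, and these recovered reads were used. They served for exact Poisson and exact conditional binomial intervals at 95%, which cover counting error only, as reads carry no molecular identifiers. For a gene of 1 kilobase, 1 read is worth between 0.0578 and 0.0809 FPKM. A library with 0 reads was set to a floor of 3 reads for folds. No count model was run and no p-value is given, since there is 1 library per day.

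Differences were taken on log2(FPKM + 1), which understates the change of low genes, over 7 comparisons of the whole table. The 10 genes, the gene lists, the comparisons and the rule for named genes (the 10 genes, the 5 other EGF-family ligands, the 2 largest rises and falls per list at day 6 and day 30 against day 0, and the 3 nearest profiles per gene) were chosen with earlier results of these data known. ADAM17, ADAM9, DUSP1, JUNB and DUSP6 in day 30 against day 6, and the flanking genes MTHFD2L and PARM1, were named after their values were seen. Alternatives were a pseudocount of 0.1, other minimums, 4 other scalings, a call at 2, intervals and other lengths. The procedure was checked on simulated reads. Analyses used Python 3.11.15, numpy 2.4.6, pandas 2.3.3, scipy 1.17.1 and matplotlib 3.10.9.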

Additional observations from a re-analysis of the deposited data

How the results depend on the processing

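No paired analysis was possible because each day had 1 library. Counts of called genes among the 10 kept within 1.5 times of those reported in all 14 cases with intervals that exclude 1. The same held with no minimum and with scaling by median of ratios, but neither setting could show much. A log2(FPKM + 1) difference of 1 already requires 1 FPKM in the higher library, so dropping the minimum could move no call. The deposited denominators lay between 0.995 and 1.01 times those by median of ratios, so that scaling nearly repeats the deposited one. Scaling by recovered reads or by TMM, and TPM, gave 2 lower in place of 1 for day 30 against day 6. A pseudocount of 0.1 gave 2 lower for day 3 against day 2, day 6 against day 4, day 30 against day 6 and day 6 against day 0, and 1 lower for day 30 against day 0. TPM gave 2 higher for day 2 against day 0, day 3 against day 2 and day 6 against day 4, with 2 lower for day 3 against day 2 and day 6 against day 0, 3 lower for day 6 against day 4 and 1 lower for day 30 against day 0. A minimum of 5 FPKM left 0 higher for day 3 against day 2 and day 6 against day 0, 0 lower for day 6 against day 4 and day 30 against day 6, and 2 higher for day 30 against day 6. A call at 2 left 0 in the 7 counts it moved, all of 1 gene. Over the table, in the order of day 2 against 0, 3 against 2, 4 against 3, 6 against 4, 30 against 6, 6 against 0 and 30 against 0, called genes numbered 6406, 6102, 4609, 6152, 12721, 10221 and 13676 by TPM. They numbered 1319, 939, 442, 914, 3678, 2729 and 4845 at a minimum of 5 and 435, 213, 113, 332, 1592, 1128 and 2369 at a call of 2. The first 4 were 4222, 3439, 2361 and 3380 with a pseudocount of 0.1, and day 4 against day 3 had 769 with intervals that exclude 1. Receptor shares at day 30 were 47.6% for EGFR and 26.4% for ERBB3 by reads without length, and 33.2% for EGFR, 35.8% for ERBB2 and 0.551% for ERBB4 by the longest coding transcript. BTC was highest at day 3 when scaled by recovered reads, on 1 read. Of 70 log2 differences recomputed under each of 5 settings, only those of called genes were checked for a change of sign, and 0 changed. Each of these is at least 1 in size and a pseudocount cannot turn a sign, so the check had little room to fail. Scaling by recovered reads left 3 higher in place of 4 for day 30 against day 6. The 3 nearest profiles were all replaced for AREG, EREG, HBEGF and ERBB4 with a pseudocount of 0.1. For TPM, the pseudocount and minimum stayed at 1 in another unit, so its counts changed with the call rule as well as the scaling. The cause of the other shifts was not tested.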

Other observations

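Membrane partners of HBEGF were examined as a list of 5 genes. CD9, a tetraspanin that binds the HBEGF precursor, had 87.4 FPKM at day 0, 34.3 at day 2, 10.1 at day 3, 5.73 at day 4, 2.96 at day 6 and 28.8 FPKM at day 30, so its lowest library was also that of HBEGF. CD44, a hyaluronan receptor that can hold HBEGF at the cell surface, had 0.592 FPKM at day 0, 0.243 FPKM at day 6 and 26.9 FPKM at day 30. Between day 30 and day 6, 4 of 5 genes were called higher and 0 lower, and between day 6 and day 0, 0 of 4 tested were higher and 1, CD9, was lower. The proteoglycan SDC1, at 8.31 FPKM at day 30 and 4.55 FPKM at day 6, was the gene not called in the first of these. The list was chosen with results of these data known. Of all genes tested, 21.0% were called higher and 15.3% lower between day 30 and day 6. Between day 6 and day 0 the shares were 14.9% and 13.1%.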
